A study of Capsella grandiflora and Capsella rubella and Capsella orientalis with 27 samples.

Results

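Gene activity in expanding and maturing flower buds of Capsella grandiflora was compared with that in its 10 day old seedlings. Capsella is a genus of the mustard family, and C. grandiflora is its outcrossing species, with large flowers that are pollinated by insects. The comparison rests on 6 of the 27 RNA sequencing libraries of the study, 3 of expanding buds and 3 of seedlings, and on all 26521 gene identifiers in the count files, after 5 summary rows that name no gene were dropped. The members were chosen by the labels of species and stage. The study sampled 3 species at 3 stages. Both groups compared are C. grandiflora with no treatment named in the labels, and they differ in organ and age. Dividing flower buds of C. grandiflora, and the same stages of the self-fertilising species C. rubella and C. orientalis, are given where they show how the C. grandiflora values stand. The labels do not say which plants or lines were used, how many plants went into a library, or whether seedlings were taken with their roots.

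A bud that expands and matures has largely ended cell division in its organs. Its petals and stamen filaments lengthen, pollen matures in the anthers, and the pistil prepares for pollination. Pollen in particular is known to use a large set of genes that are silent in vegetative organs. A seedling is made of cotyledons, first leaves, a shoot tip and a root, and its green tissue is devoted to photosynthesis. In such whole organs a lower level can mean fewer cells of a type or less RNA per cell, and these cannot be told apart here.

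The identifiers come without gene names, so genes are described by their levels and not by function, and the identity of the organs could not be checked against marker genes. Levels are given in CPM, gene counts scaled to a common library size. Because CPM is not divided by gene length, an order of different genes by CPM also reflects how long their transcripts are.

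Expanding bud libraries held 27488832 to 40909319 gene counts and seedling libraries 10612848 to 21880641. Seedling replicate 2 was the shallowest. Reads that aligned to several places made up 4.28% to 4.40% of listed reads in expanding buds and 9.10% to 9.44% in seedlings. Reads outside any gene made up 5.16% to 5.43% in buds and 4.14% to 4.60% in seedlings, and reads shared by overlapping genes 4.24% to 4.33% in buds and 3.82% to 3.94% in seedlings. The groups did not overlap in any of these (exact two-sided permutation p = 0.1, the smallest that 3 against 3 libraries allow, and 0.109 after Benjamini-Hochberg adjustment over 12 such tests). Genes with near-identical copies lose reads to the class that aligned to several places, and the part of that difference in the results was not tested.

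Most genes differed between expanding buds and seedlings. Of 23186 genes that passed the filter on low counts, 17848 (77.0%) were called by edgeR's quasi-likelihood test, at an adjusted p under 0.05 by the method of Benjamini and Hochberg. Expanding buds were higher for 9287 of them (40.1% of genes tested) and lower for 8561 (36.9%). The balance was close and depended on scaling, since upper quartile scaling gave 8524 higher and 9386 lower. The 3 bud libraries and the 3 seedling libraries did not overlap for 17434 genes (75.2%).

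Large differences were common, and from 8-fold upwards more genes were higher than lower in buds. At least 2-fold differences were called higher in buds for 5266 genes (22.7%) and lower for 5046 (21.8%). At 8-fold the counts were 2671 (11.5%) higher and 1915 (8.26%) lower, and at 32-fold 1736 (7.49%) higher and 928 (4.0%) lower. Some of these folds were fitted against a group with no counts, and such folds depend on a prior count. With such groups set to a floor of 3 counts over their 3 libraries, 2303 genes were at least 8-fold higher and 1868 lower, and 1241 were at least 32-fold higher and 822 lower. The median log2 fold over all genes tested was 0.05, the middle 50% of genes lay between -0.83 and 0.96, and the outer 5% tails began at -4.43 and 6.63.

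**Figure D1:**
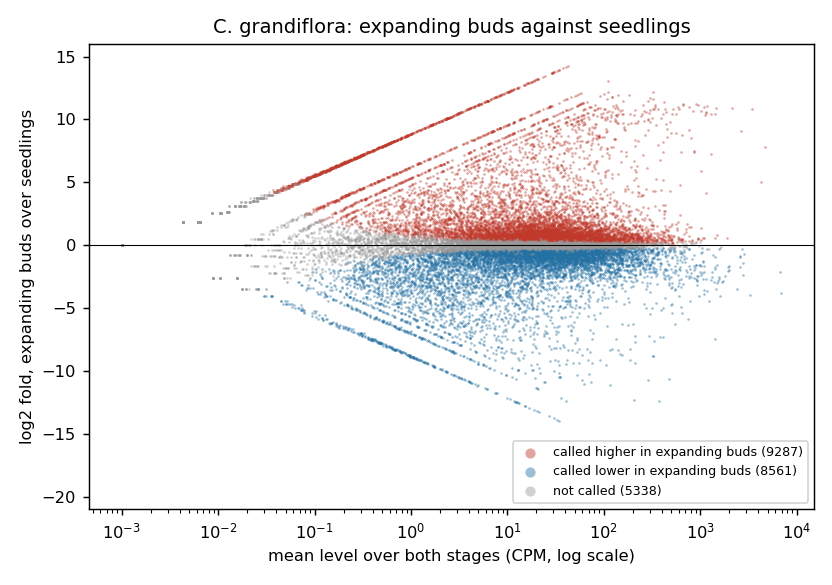
Each point is a tested gene, with its mean CPM over both stages on a log x axis and the fitted log2 fold of expanding buds over seedlings on the y axis. Called genes are coloured, 9287 higher and 8561 lower; the straight edges at large folds are genes with few or no counts in one stage.

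In the 1736 genes at least 32-fold higher in expanding buds, the median level was 10.6 CPM in expanding and 0.849 CPM in dividing buds, and 0.0314 CPM in seedlings. The 1853 genes 2- to 4-fold higher had a median of 24.4 CPM at the expanding stage, 14.9 CPM at the dividing stage and 9.46 CPM in seedlings. In each class of higher genes the median of dividing buds stood between those of expanding buds and seedlings. In the 928 genes at least 32-fold lower, the median was 0.0257 CPM in expanding and 0.0568 CPM in dividing buds, and 5.24 CPM in seedlings. The 2143 genes 2- to 4-fold lower had 10.3 CPM at the expanding stage, 12.9 CPM at the dividing stage and 27.1 CPM in seedlings. In each class of lower genes of at least 2-fold, dividing buds stood nearer to expanding buds than to seedlings. These classes were cut from the fold itself, so the levels in expanding buds and seedlings are a description.

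Many called differences were small. The fold was under 2 for 7536 called genes, and the median standard error of a log2 fold was 0.15. Of the 5338 genes that were not called, 3815 (71.5%) had a 95% interval of the fold that lay within 2-fold in either direction, so a larger difference was outside the interval for them. Another 555 had a fitted fold of at least 2 without a call. Their median level over the 6 libraries was 0.0291 CPM, at which these depths give few counts.

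The share of genes called was higher among genes with more counts. Under 1 CPM (mean of the 6 libraries) 60.3% of 3554 genes were called, with a median standard error of 0.80. From 1 to 10 CPM 77.5% of 6156 genes were called, from 10 to 100 CPM 80.4% of 11278, and from 100 to 1000 CPM 84.4% of 2119. Of the 79 genes at 1000 CPM or more, 76 were called, with 24 higher and 52 lower in buds. From 1 to 10 CPM lower calls also outnumbered higher ones, with 2317 higher and 2456 lower. At 1000 CPM or more, 17 of the 24 higher genes were at least 8-fold higher, and 11 of the 52 lower ones at least 8-fold lower. From 10 to 100 CPM the 8-fold differences favoured buds, with 805 higher and 424 lower, and from 100 to 1000 CPM they did so too, with 188 higher and 89 lower, but from 1 to 10 CPM they did not, with 776 higher and 837 lower.

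**Figure D2:**
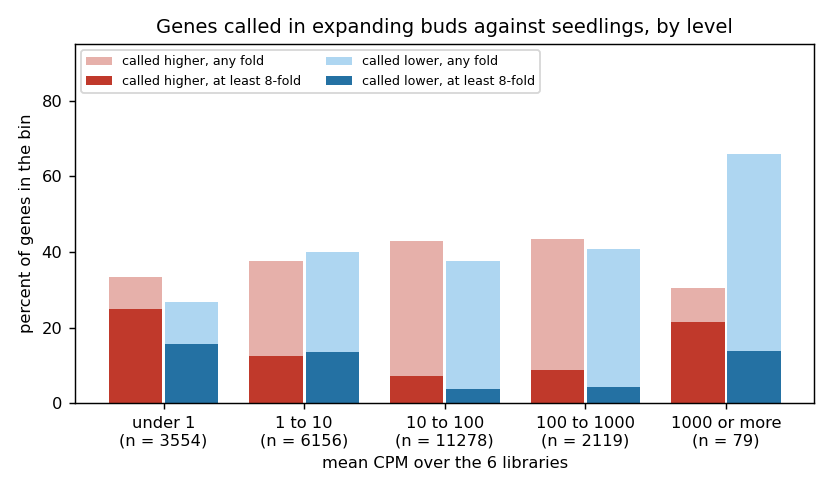
Bars give the percent of genes in each bin of mean CPM over the 6 libraries that were called higher (red) or lower (blue) in expanding buds than in seedlings, with the dark part at least 8-fold. At 1000 CPM or more, 24 genes were called higher and 52 lower, while from 10 to 100 CPM 4836 were called higher and 4232 lower.

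Many of the genes with the most counts in expanding buds had few in seedlings. These genes were ranked on the same libraries, so their calls are a description. Among the 10 with the highest mean CPM in buds, 9 were called higher there, each by at least 32-fold, and 1 was called lower. The 10 ranged from 2483 to 9257 CPM in expanding buds. Their median of 3566 CPM in expanding buds compared with 47.3 CPM in dividing ones and 7.46 CPM in seedlings. Of the top 100 in buds, 73 were called higher and 45 of these by at least 32-fold, and 17 were called lower. Over all genes tested 40.1% were called higher, 7.49% by at least 32-fold, and 36.9% lower. Of the 100, 39 lay under 10 CPM in seedlings and 28 under 10 CPM in dividing buds.

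The genes with the most counts in seedlings kept a substantial level in buds. All 10 at the top in seedlings were called lower in buds, but 3 by at least 8-fold and 0 by at least 32-fold. Their median of 1349 CPM in expanding and 1008 CPM in dividing buds compared with 4204 CPM in seedlings. Of the top 100 in seedlings 94 were called lower in buds, 24 by at least 8-fold and 4 by at least 32-fold. Another 3 were called higher. Over all genes tested 36.9% were called lower, 8.26% by at least 8-fold and 4.0% by at least 32-fold. Of the 100, 0 lay under 10 CPM in expanding buds and 1 in dividing buds. Both top 100 lists shared 23 genes, and both top 1000 lists shared 532 (53.2% of each).

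The top 100 and the top 1000 genes of a library took a smaller share of counts in each bud library than in each seedling library. In expanding bud replicates 1 to 3 the top 100 genes of each library held 15.6%, 15.3% and 15.7% of counts on tested genes, and in the seedling replicates 21.6%, 18.1% and 20.1%. The top 1000 genes held 44.8% ± 0.535 in expanding buds and 49.7% ± 2.49 in seedlings (SD, n = 3 each). Neither measure overlapped between the groups (exact two-sided permutation p = 0.1, the smallest possible, and 0.109 adjusted over 12 tests). For the top 10 genes the shares overlapped, at 4.55% ± 0.0622 in expanding buds and 5.34% ± 0.672 in seedlings (SD, n = 3 each, exact permutation p = 0.2, adjusted 0.2). Dividing buds had the lowest means, with 2.60% in the top 10 and 11.5% in the top 100.

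Some genes were well expressed in one organ and nearly absent from the other. At least 10 CPM in each expanding bud library and under 0.1 CPM in each seedling library was met by 209 genes, and the reverse, at least 10 CPM in each seedling library and under 0.1 CPM in each bud library, by 62. The bud genes averaged between 11.2 and 220 CPM in expanding buds and the seedling genes between 11.4 and 125 CPM in seedlings. With 0 counts in all 3 libraries of the other stage there were 84 bud genes and 21 seedling genes. A count of 0 allows up to 0.0660 CPM over the 3 seedling libraries and 0.0327 CPM over the 3 expanding bud libraries, in terms of counting error.

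These counts turned on depth and on seedling replicate 2. Without that library 328 bud genes met the 0.1 CPM rule and 188 had 0 counts in seedlings. A rule for each library is easier to meet with 1 fewer, and without seedling replicate 1 or 3 the 0.1 CPM rule gave 234. All 6 libraries were also thinned to the depth of the shallowest, 10612848 counts. Then 162 bud genes and 55 seedling genes met the 0.1 CPM rule, and 95 and 40 had 0 counts in the other stage. At that depth 1 count lay close to 0.1 CPM, so the thinned rule was not the same rule as at full depth.

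Dividing buds lay near the seedling side for most of the bud genes. The 209 bud genes had a median of 23.5 CPM at the expanding stage, 0.0969 CPM at the dividing stage and 0.0208 CPM in seedlings. In dividing buds 168 of them stood under 1 CPM, 22 between 1 and 10 CPM, and 19 at 10 CPM or more. The 62 seedling genes were low in both bud stages, with medians of 0.0126 CPM at the expanding stage, 0.0208 CPM at the dividing stage and 25.9 CPM in seedlings, and 60 of them stood under 1 CPM in dividing buds. The libraries of C. rubella and C. orientalis did not choose these genes. Expanding buds of both species were called higher than seedlings for 199 of the 209 bud genes. For 59 of the 62 seedling genes they were called lower in both. Of all genes tested, 43.3% were called higher in C. rubella and 39.1% in C. orientalis, and 33.6% and 31.2% lower.

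The single genes named are the top 2 in each direction by fitted fold, among called genes with at least 10 CPM in each library of the higher group and no overlap of the groups. Among bud genes these were Carubv10019074m.g and Carubv10015446m.g, and among seedling genes Carubv10027970m.g and Carubv10021389m.g. What these genes do is not stated in the sources used here.

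Carubv10019074m.g stood at 91.9, 60.6 and 105 CPM in expanding bud replicates 1 to 3 and at 0 counts in every seedling library. Counts pooled over the libraries of each group were at least 1308-fold higher in buds, against a floor of 3 counts over the seedling group (edgeR, adjusted p = 3.38e-16). In dividing buds it had 16 counts in all, at 0.146, 0.0851 and 0.158 CPM. Its expression in C. grandiflora was thus near 0 in both other stages and high in every expanding bud library. Expanding buds of C. rubella averaged 34.9 ± 2.62 CPM, against 2 counts in its seedlings, and those of C. orientalis averaged 53.4 ± 12.6 CPM, against 0 counts (SD, n = 3 each).

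Carubv10015446m.g had 71.7, 73.4 and 98.7 CPM in expanding buds and 0 counts in seedlings, at least 1210-fold higher in buds by pooled counts (edgeR, adjusted p = 2.61e-18). Dividing buds held 0.415, 0.532 and 0.553 CPM, all above the seedlings and all far under the expanding buds. The level at the expanding stage averaged 81.2 ± 15.1 CPM in C. grandiflora, 32.4 ± 0.115 CPM in C. orientalis and 22.7 ± 1.72 CPM in C. rubella (SD, n = 3 each). A difference between species in this level was not tested. Seedlings held 1 count of the gene in C. orientalis and 0 in the other species.

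Carubv10027970m.g was the seedling gene with the largest fitted fold. It had 0 counts in all expanding bud libraries and 88.5, 48.4 and 70.8 CPM in the seedling libraries. By pooled counts, which weight deeper libraries more than a mean of CPM does, it was at least 2228-fold lower in expanding buds (edgeR, adjusted p = 3.63e-11). Dividing buds held 1 count in all. Expanding buds of C. rubella held 3 counts, against 11.3 ± 4.18 CPM in its seedlings, and those of C. orientalis 0 counts, against 9.15 ± 4.53 CPM (SD, n = 3 each).

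Carubv10021389m.g had 0 counts in the expanding and in the dividing buds of C. grandiflora, and 84.3, 37.0 and 76.0 CPM in its seedlings. By pooled counts it was at least 2150-fold lower in expanding buds (edgeR, adjusted p = 1.37e-11). Seedling replicate 2 had the lowest level of both seedling genes. For none of the 4 genes did the test call a difference between C. grandiflora and another species in the change from seedlings to expanding buds, with adjusted p of 0.212 or more (edgeR's quasi-likelihood test of the interaction). With 0 counts in a group the interval of such a difference is wide, and the result does not show that the species act alike.

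**Figure D3:**
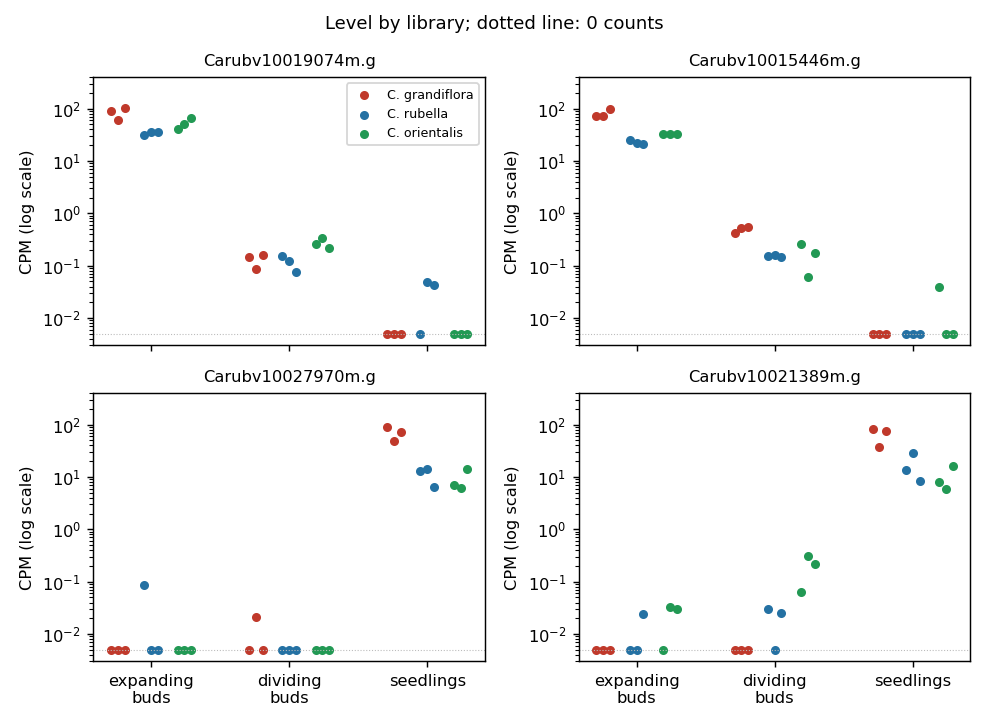
Panels show the CPM of the 4 named genes in each of the 27 libraries on a log axis, by stage and species, with libraries of 0 counts drawn on the dotted line. Both upper genes are at 60.6 CPM or more in every C. grandiflora expanding bud library and at 0 counts in its seedlings; both lower genes are at 37.0 CPM or more in its seedlings and at 0 counts in its expanding buds.

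Gene lists taken from the other species gave the same contrast in libraries that did not choose the genes. At least 32-fold higher in expanding buds than in seedlings of both C. rubella and C. orientalis were 1145 genes, and 1122 of them (98.0%) were called higher in C. grandiflora, where 40.1% of all genes tested were. Another 21 were not called and 2 were called lower. Their median log2 fold in C. grandiflora was 8.36, or 7.39 with groups of no counts at the floor, beside 0.05 over all genes. For the 491 genes at least 32-fold lower in both, 484 (98.6%) were called lower in C. grandiflora, against 36.9% of all genes, and 0 were called higher. Their median log2 fold was -7.44, or -6.46 with such groups at the floor.

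Those 1145 bud genes held a large part of the bud counts. In expanding bud replicates 1 to 3 they made up 14.6%, 14.6% and 15.3% of counts on tested genes, and in the seedling replicates 0.0541%, 0.0982% and 0.0627%. Dividing buds lay between, at 2.82% ± 0.334 (SD, n = 3). The groups did not overlap (exact two-sided permutation p = 0.1, the smallest possible, and 0.109 adjusted over 12 tests). In C. grandiflora 265 of the genes stood at 100 CPM or more in expanding buds, 438 between 10 and 100 CPM and 442 under 10 CPM. Their median level was 20.4 CPM in expanding and 0.462 CPM in dividing buds, and 0.0628 CPM in seedlings, and 696 stood under 1 CPM in dividing buds while 170 reached 10 CPM there.

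The 491 seedling genes took a much smaller share of seedling counts. They made up 0.0199% ± 0.00163 of counts in expanding buds and 1.80% ± 0.162 in seedlings (SD, n = 3 each, exact two-sided permutation p = 0.1, adjusted 0.109). Dividing buds were close to expanding buds, at 0.0290% ± 0.000949 (SD, n = 3), and 455 of the 491 genes stood under 1 CPM there. Genes at least 2-fold lower in both other species, 3120 in number, held 6.81% ± 0.315 of counts in expanding and 7.76% ± 0.388 in dividing buds, and 32.6% ± 1.80 in seedlings (SD, n = 3 each). The 3428 genes at least 2-fold higher held 26.7% ± 0.410 in expanding and 11.5% ± 0.773 in dividing buds, and 2.22% ± 0.186 in seedlings (SD, n = 3 each). For both lists of bud genes no expanding bud library overlapped a dividing bud library.

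**Figure D4:**
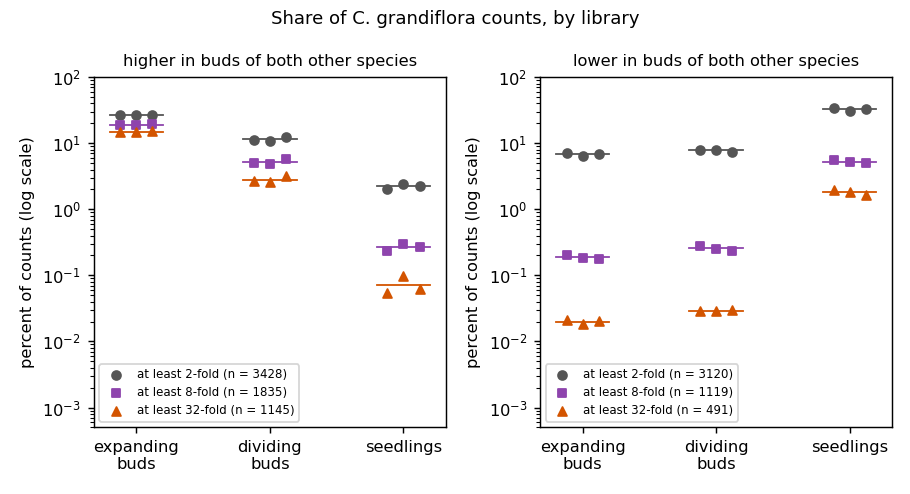
Points give the percent of counts on tested genes (log scale) that each C. grandiflora library spent on genes at least 2-, 8- or 32-fold higher (left) or lower (right) in expanding buds than in seedlings of both C. rubella and C. orientalis, with lines at the means. The 32-fold higher list took 14.9% in expanding and 2.82% in dividing buds, and 0.0717% in seedlings, while the 32-fold lower list took 0.0199% in expanding and 0.0290% in dividing buds, and 1.80% in seedlings.

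Traces of bud genes were uneven among the seedling libraries. At equal depth 437, 683 and 490 of the 1145 bud genes had at least 1 count in seedling replicates 1 to 3, so that replicate 2 held the most. Among expanding bud replicates 193, 204 and 205 of the 491 seedling genes had a count at equal depth. What gave replicate 2 its larger number was not tested. The bud genes held 14.6% or more of counts in each expanding bud library and 0.0541% and 0.0627% in the other seedling libraries.

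Among genes called in each of the species compared, most changed in the same direction. The same test called 76.9% of genes in C. rubella (43.3% higher in expanding buds, 33.6% lower) and 70.3% in C. orientalis (39.1% higher, 31.2% lower). Of 14914 genes called in both C. grandiflora and C. rubella, 14066 (94.3%) changed the same way, and of 13617 called in both C. grandiflora and C. orientalis, 12431 (91.3%). These comparisons share no library. In all 3 species 11939 genes were called, 10937 of them (91.6%) the same way, with 5986 higher and 4951 lower in expanding buds. Of all genes called higher in C. grandiflora, 64.5% were called the same way in both others, and of those called lower, 57.8%. The part was 75.1% of genes at least 2-fold higher, 78.5% at 8-fold and 82.1% at 32-fold. It was 74.5%, 79.4% and 82.9% of genes lower by the same folds. Each of these sets holds the next, and in separate classes the rise was not steady for higher genes. There 70.4% were called the same way at 2- to 4-fold, 74.5% at 4- to 8-fold and 72.0% at 8- to 32-fold. Across the 23186 genes, which are not independent replicates, Pearson's correlation of the log2 folds was 0.883 with C. rubella and 0.827 with C. orientalis.

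The size of the change differed more often than its direction. The test of the interaction called a different change in C. grandiflora than in C. rubella for 8826 genes (38.1%), and than in C. orientalis for 10238 (44.2%), by edgeR's quasi-likelihood test with Benjamini-Hochberg adjustment. At least 2-fold different were 3364 (14.5%) and 4263 (18.4%). Both comparisons use the same C. grandiflora libraries. The change was more positive in C. grandiflora than in C. rubella for 3736 genes (16.1%) and more negative for 5090 (22.0%), but that split depended on scaling, with 4305 and 4381 under RLE size factors and 2110 and 8398 with library totals alone. A fit of the 12 libraries of both species alone turned it, with 3686 and 3321. Against C. orientalis 4915 (21.2%) were more positive and 5323 (23.0%) more negative. Library totals alone gave 3183 and 7627, while the larger direction turned under RLE size factors (5375 and 4869), DESeq2 (5674 and 5109) and the fit of 12 libraries (4909 and 4096). Library totals alone moved the median difference over all genes to -0.34 for C. rubella and -0.24 for C. orientalis, against -0.08 and -0.01 with the scaling used here.

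**Figure D5:**
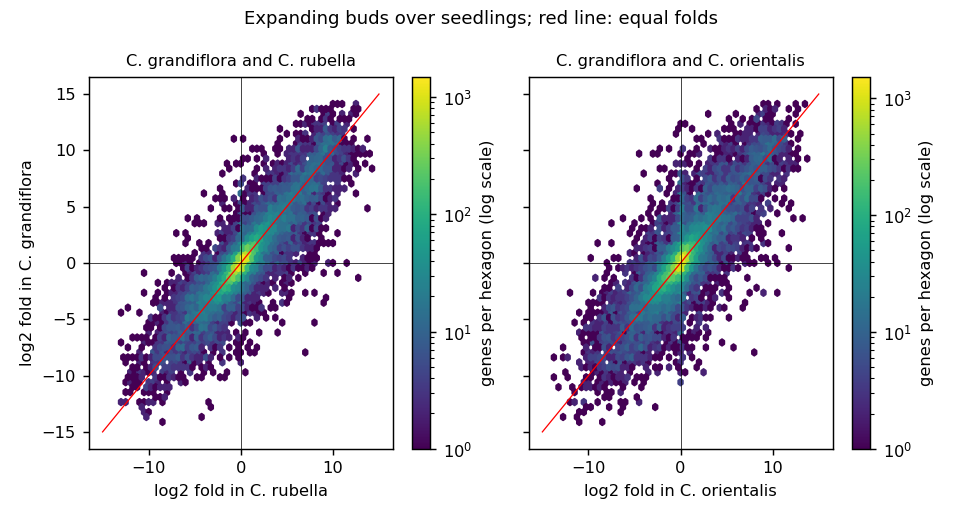
Each hexagon counts genes by the log2 fold of expanding buds over seedlings in C. grandiflora (y axis) and in C. rubella or C. orientalis (x axis), with colour on a log scale and a red line where folds are equal. The densest hexagons follow that line, with correlations of 0.883 and 0.827, and genes at the upper left and lower right changed in opposite directions.

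Among genes with strong stage differences, called differences between species ran more often towards a larger change in C. grandiflora than in C. orientalis. To keep the libraries compared from choosing the genes, lists were taken from C. rubella at 8-fold. Such lists favour a species whose changes resemble those of C. rubella more, and the part of that here was not tested. Of the higher list, 90.1% were called higher in C. grandiflora and 78.9% in C. orientalis. Of the lower list, 93.5% and 83.4% were called lower. Of 2705 genes (11.7% of those tested) higher in expanding buds of C. rubella, 479 (17.7%) had a more positive change in C. grandiflora than in C. orientalis and 238 (8.80%) a more negative one, where 21.2% and 23.0% of all genes tested did. Their median log2 folds were 5.86 in C. grandiflora and 4.81 in C. orientalis, or 4.45 and 3.90 with groups of no counts at the floor. Of 1797 genes (7.75%) lower in expanding buds of C. rubella, 465 (25.9%) had a more negative change in C. grandiflora and 198 (11.0%) a more positive one, with medians of -4.68 and -3.92, or -4.49 and -3.70 at the floor. In both lists the larger direction was the same under the other scalings, DESeq2, no filter, the stricter threshold, the replicate block, thinning and the loss of each of the 6 expanding bud and seedling libraries of C. grandiflora.

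The change in C. grandiflora was set against that in C. rubella with lists taken from C. orientalis. Of 2282 genes (9.84%) at least 8-fold higher in expanding buds of C. orientalis, 290 (12.7%) had a more positive change in C. grandiflora than in C. rubella and 221 (9.68%) a more negative one, and with library totals alone this turned to 273 and 303. Their median log2 folds were 6.11 in C. grandiflora and 6.20 in C. rubella, and 4.92 and 4.97 at the floor, while the median over genes of the difference between species was 0.34, higher in C. grandiflora. Of 1653 genes (7.13%) at least 8-fold lower in C. orientalis, 326 (19.7%) had a more negative change in C. grandiflora and 213 (12.9%) a more positive one, with medians of -4.56 in C. grandiflora and -4.33 in C. rubella.

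Reversals of at least 2-fold in both species compared were few among the 23186 genes tested. At least 2-fold higher in expanding buds of C. grandiflora, at least 2-fold lower in those of C. rubella and with a called interaction were 34 genes, and the opposite pattern was met by 72. With C. orientalis the numbers were 87 and 101. At any fold, 848 of 14914 genes called in both C. grandiflora and C. rubella (5.69%) were called in opposite directions. With C. orientalis it was 1186 of 13617 (8.71%).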

How the data were processed

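The authors deposited raw counts of reads per gene, 1 file per library, and the submitters' processing notes name Trimmomatic for trimming and HTSeq for counting. Which aligner, build, gene models or strand setting they used is not given in the sources used here. Reads of overlapping genes on opposite strands may therefore be mixed, and near-identical gene copies can share or lose reads. Per the labels' protocols, total RNA was made into TruSeq libraries and read in single reads of 50 cycles. The files list 0 reads as unaligned or of low quality, so the aligned share is unknown.

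The tests ran in edgeR 4.0.16 under R 4.3.3, and DESeq2 1.42.0 served as an alternative. The filter filterByExpr kept 23186 of 26521 genes, and 3335 were not tested. Libraries were scaled by TMM, a trimmed mean of the log ratios between libraries. All 27 libraries entered 1 fit of 9 group means (18 residual degrees of freedom). Contrasts were tested with the quasi-likelihood F-test, p-values were adjusted by Benjamini-Hochberg across the 23186 genes, and 0.05 was the threshold. Standard errors are the log2 fold divided by the square root of F. CPM divide counts by the TMM-scaled library size. Shares of counts were compared by exact permutation over the libraries. Replicate pairs differed by 14.4 to 25.7 in chi-square per degree of freedom over genes with at least 20 counts, so none were counted as 1 sample. The labels do not say that replicates came from separate plants, so p-values cover the spread among these libraries, and that spread may be technical. The test was checked on simulated data in which few genes changed, far fewer than were called here. That check does not bear on the choice of scaling. Floors cover counting error alone, while intervals of a fold also hold the fitted spread between libraries.

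Single genes were named by the largest fold in each direction, at 10 CPM or more in each library of the higher group, without overlap, and limited to 2 each because identifiers carry no names. Of 36 gene lists written as patterns on gene descriptions, 0 could be matched, and their tests were not run. The comparison, lists and rules were chosen with earlier results of these data known.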

Additional observations from a re-analysis of the deposited data

Results flagged for a closer look

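The change from seedlings to expanding buds differed between C. grandiflora and C. rubella for 8826 genes, by edgeR's quasi-likelihood test of the interaction at a Benjamini-Hochberg adjusted p under 0.05. Between C. grandiflora and C. orientalis it differed for 10238 genes by the same test.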

How the results depend on the processing

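Of 543 alternative values for 43 results, 532 stayed within 1.5 times the reported count, or kept direction and call. Another 11 moved further and 0 reversed. Counts of genes were judged by size alone and could not be labelled reversed. Turns in the larger of 2 directions therefore stand among the 532 and the 11. Upper quartile scaling, with 8524 genes higher and 9386 lower in expanding buds, is such a turn. With library totals alone, 2110 genes had a more positive and 8398 a more negative change in C. grandiflora than in C. rubella, and 3183 a more positive one than in C. orientalis. A fit of the 12 libraries of both species alone gave 3321 genes with a more negative change than in C. rubella, and 3686 with a more positive one, which turned the larger direction. DESeq2 called 9141 genes higher and 8699 lower in expanding buds, and a fit of the 6 libraries alone 8048 and 7499. Leaving out a replicate gave 8984 to 9204 genes higher and 8263 to 8379 lower. It also turned the 209 bud genes under 0.1 CPM in seedlings into 211 to 328, and the 84 with 0 counts into 85 to 188. Both were highest without seedling replicate 2, and these alternatives were chosen after seeing the data. A rule that each library must meet is easier to meet with 1 library fewer, so some rise was built in. Without seedling replicate 1 or 3 the 0.1 CPM rule gave 234, and 103 and 104 bud genes had 0 counts in seedlings. Thinning to equal depth, also chosen later, gave 40 seedling genes with 0 counts in buds, against 21. The cause of these shifts was not tested.

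The labels give both groups replicate numbers 1 to 3, but do not say that a number marks a shared plant or day. Deviations from the group means correlated at 0.0553, 0.0381 and 0.0213 between same-numbered libraries. Each bud library correlated best with the seedling library of its own number, which comes from the data and not the design. The values are small, and with 3 libraries per group such a match can arise by chance, so it does not show pairing. With a replicate block 9216 genes were higher and 8467 lower, against 9287 and 8561, and 8564 and 10017 interactions were called. Alternatives for gene lists by name were not run, since identifiers carry no names. Depth limits genes under 1 CPM, above all in seedlings.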
